A study of Arabidopsis thaliana with 36 samples.

Results

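The comparison described here set shoots of the Arabidopsis thaliana ecotype Kas-1 (Kas) kept for 24 h without iron against Kas shoots kept for 24 h on complete medium. By their titles, 6 of the 36 arrays of the series belong to it, 3 in each group. The series also holds Kas shoots after 48 h without iron, shoots of a second ecotype, Tsu-1 (Tsu), and the roots of both. An ecotype is a natural inbred line, and no transgene or mutation is named for either. All plants were 24 d old when the treatment began, and iron was supplied as the chelate Fe(III)-EDDHA at 50 µM or left out. They had grown in hydroponic solution on rockwool, with a photoperiod of 16 h and light of 150 µmol m-2 s-1. The extraction protocol names whole rosettes for all samples, those titled roots included, so it conflicts with the root titles. Both groups were sampled at the same time after the change of medium, so they differ by label in iron alone. Whether a group's 3 arrays stand for 3 separate cultures is not stated, and the p-values therefore rest on a spread that may be technical in part or in full.

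Iron is a cofactor of the photosynthetic electron chain, of heme enzymes and of iron-sulfur proteins, and leaves hold most of the iron of a rosette plant. When iron runs short, Arabidopsis induces a set of basic helix-loop-helix (bHLH) transcription factors and small IRON MAN (IMA) peptides, which stand upstream of iron uptake in the root. Shoots are known to sense and signal the shortage, to lower the use of iron in plastids, and to shift from iron to copper/zinc superoxide dismutases. The comparison asks which of these and other genes had moved in Kas leaves 1 day after iron was withdrawn.

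The arrays are 1-colour Affymetrix oligonucleotide arrays, on which a probe set reads 1 transcript or several, and all values below are expression values on a log2 scale, so a difference of 1 is a 2-fold change. Of 22746 probe sets tested, 13513 name 1 gene, 503 name several and 8730 are unnamed here. A probe set is called where the limma adjusted p was below 0.05. The tissue fitted its label. The mean of 3 genes of the photosystems ran from 12.11 to 12.27 with iron and from 12 to 12.21 without, against 4.31 to 5.53 in Kas roots, and that of 4 root markers from 3.61 to 3.88, against 7.70 to 8.57 in roots. The mean of 2 flower and stem markers (A9 and AMS) ran from 2.12 to 2.37. An index of ecotype over 30 probe sets was scaled to put the 48 h shoots without iron of Tsu near 0 and of Kas near 1. It ran from 0.979 to 1.009 on the 6 arrays, and each of them was nearest to an array of its own group. The hybridisation controls, RNAs added in fixed amounts, did move with the groups: the mean of 9 such probe sets was 9.02 ± 0.20 with iron and 9.72 ± 0.13 without (SD, n = 3 each), with no overlap. Their part in the results was not tested.

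Without iron, 424 of the 22746 probe sets were called (1.86%), 241 higher (1.06%) and 183 lower (0.805%). Of these, 53 rose (0.233%) and 22 fell (0.0967%) by at least 2-fold. Most changes were small, with a median absolute log2 difference of 0.69 among the calls. The risen probe sets had a median difference of 0.74 and a median level with iron of 5.33, and the fallen ones had medians of -0.60 and 6.10. Over all probe sets the median difference was -0.03, with quartiles of -0.15 and 0.09, and the median level was 4.96. Of the calls, 205 named 1 gene, 112 higher and 93 lower, 5 named several, and 214 were unnamed. The 2 groups did not overlap at 423 of the calls, but neither did they at 21.0% of all probe sets. The count of calls fell whichever array was left out. It was 225, 161 and 163 without replicates 1, 2 and 3 of the shoots without iron. Without replicates 1, 2 and 3 of the shoots with iron it was 294, 233 and 215.

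**Figure D1:**
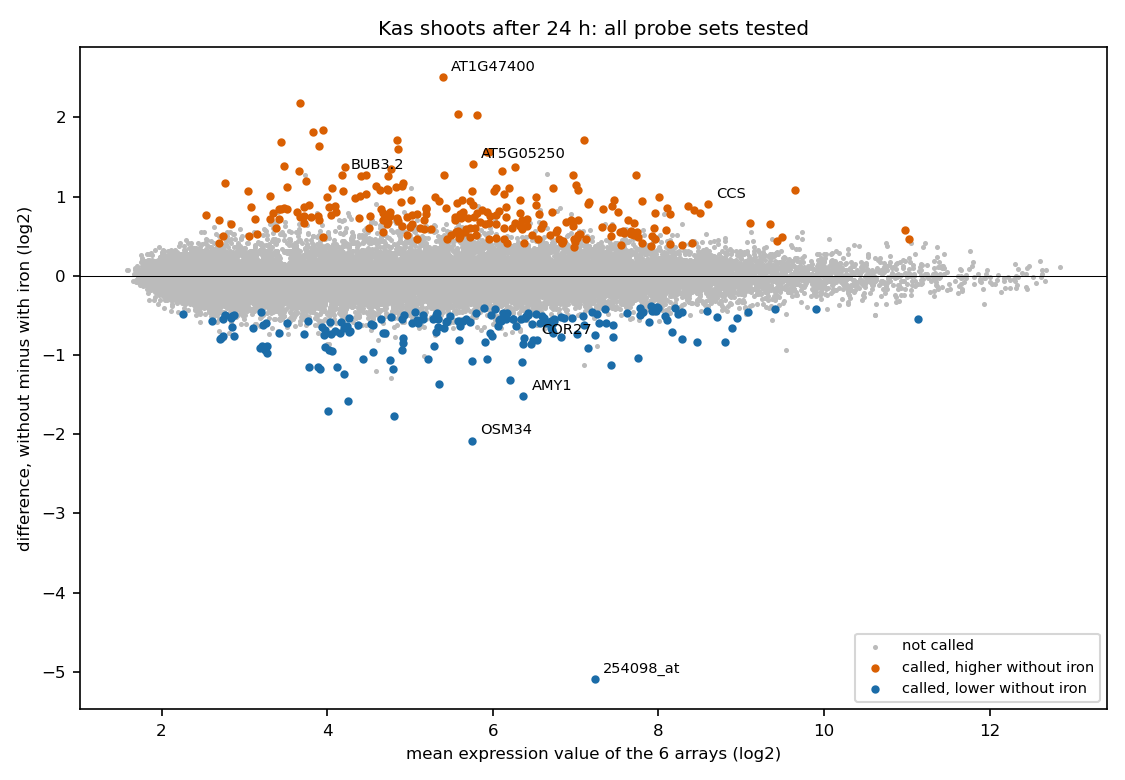
Each point is a probe set, with its mean value over the 6 arrays (log2) on the x axis and its difference, without minus with iron (log2), on the y axis. Called probe sets are coloured by direction, and the largest rise, AT1G47400 at 2.51, is far smaller in size than the deepest fall, the unnamed probe set 254098_at at -5.09.

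The largest rise of all was that of AT1G47400, entered in the list of iron-deficiency regulators as IMA1, one of the IRON MAN peptides of iron-deficiency signalling. With iron it read 4.85, 3.25 and 4.32 on replicates 1, 2 and 3, and without iron 6.61, 6.56 and 6.78. The lowest array without iron stood well above the highest with iron, and the arrays with iron were the more scattered. The rise was 2.51 on the log2 scale (SE 0.30, n = 3, limma adjusted p = 0.000165). After 48 h without iron the gene read 7.88, 7.69 and 7.57, above all arrays of 24 h, but the step from 24 h to 48 h, 1.06, did not pass (SE 0.30, adjusted p = 0.147).

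AT5G05250, a gene of unknown function, moved in the same way. It read 5.80, 4.35 and 5.0 with iron, and 6.35, 6.50 and 6.54 without, a rise of 1.41 (SE 0.26, n = 3, adjusted p = 0.00623). Its 3 arrays at 48 h, at 7.45, 7.63 and 7.53, again lay above those at 24 h (difference 1.07, SE 0.26, adjusted p = 0.0794). Over the 18 shoot arrays of both ecotypes it was the named gene whose values ran most like those of AT1G47400 (Pearson r = 0.959, as a description: the arrays share 6 groups). An unnamed probe set, 245296_at, came closer at 0.964, and the next named genes were AT5G12930 at 0.897, PYE at 0.880 and AT1G73600 at 0.852.

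None of the transcription factors of the iron response measured was called at 24 h. Of 11 probe sets for 10 of the 19 iron-deficiency regulators entered, 1 was called, AT1G47400, where 1.52% of all single-gene probe sets were called. The list's median difference was 0.06. PYE, a bHLH factor that tunes the response in iron-short cells, read 4.03, 4.1 and 4.33 with iron and 4.52, 4.71 and 4.51 without. The groups did not overlap, but the difference of 0.43 did not pass (SE 0.14, adjusted p = 0.146). At 48 h PYE read 5.50, 5.24 and 5.26, higher than at 24 h by 0.76 (SE 0.14, adjusted p = 0.0196). That call ended without replicate 1 or 3 of 24 h or replicate 1 or 2 of 48 h (highest adjusted p = 0.118). It also ended with all 36 arrays in 1 fit.

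BHLH101, a bHLH factor of the group induced by iron shortage, read 2.23, 2.20 and 2.54 with iron and 2.24, 3.22 and 3.38 without. Replicate 1 without iron stayed at the level with iron, the other 2 lay above it, and the difference of 0.62 did not pass (adjusted p = 0.528). The bHLH factors that act upstream of these genes were nearly level: ILR3 differed by -0.07, bHLH104 by 0.03, bHLH115 by -0.03, bHLH34 by 0.27 and bHLH121, also called URI, by -0.22, with none called. The E3 ligase genes AT1G74770 and AT1G18910, entered as BTSL1 and BTSL2, whose proteins mark iron regulators for degradation, were not called either. The 2 probe sets of AT1G74770 differed by -0.21 and 0.06, so they disagreed in sign.

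Among genes that handle metals, 2 rose. CCS, the chaperone that delivers copper to copper/zinc superoxide dismutase, read 7.86, 8.40 and 8.16 with iron and 9.05, 9.07 and 9.02 without. The arrays without iron were nearly equal and lay above all arrays with iron, a rise of 0.91 (SE 0.15, n = 3, adjusted p = 0.00232). At 48 h it read 9.07, 9.08 and 8.67, so the level of 24 h was held (difference -0.11, adjusted p = 0.885). The other copper gene measured, ARPN, a plantacyanin, differed by 0.21 and was not called.

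AT3G13610, entered as F6'H1, the enzyme that starts the synthesis of iron-mobilising coumarins, read 3.64, 4.62 and 4.04 with iron and 5.69, 5.16 and 5.23 without. The groups did not overlap, and the rise of 1.26 passed (SE 0.28, adjusted p = 0.021). It was the 1 gene called of 5 measured in the list of iron uptake and coumarins, where 1.52% of all single-gene probe sets were called. The list's median difference was -0.15. The related dioxygenase genes AT1G55290 and AT3G12900, entered as F6'H2 and S8H, differed by -0.16 and -0.18, AT1G28680, entered as COSY, which closes the coumarin ring, by 0.22, and the beta-glucosidase gene BGLU42 by -0.15. None of these 4 was called. Zinc and manganese transporters were not called in 3 of 3 cases, with MTP11, a manganese transporter, at 0.32, ZIP9 at 0.07 and AT3G58060, entered as MTP8, at 0.05.

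**Figure D2:**
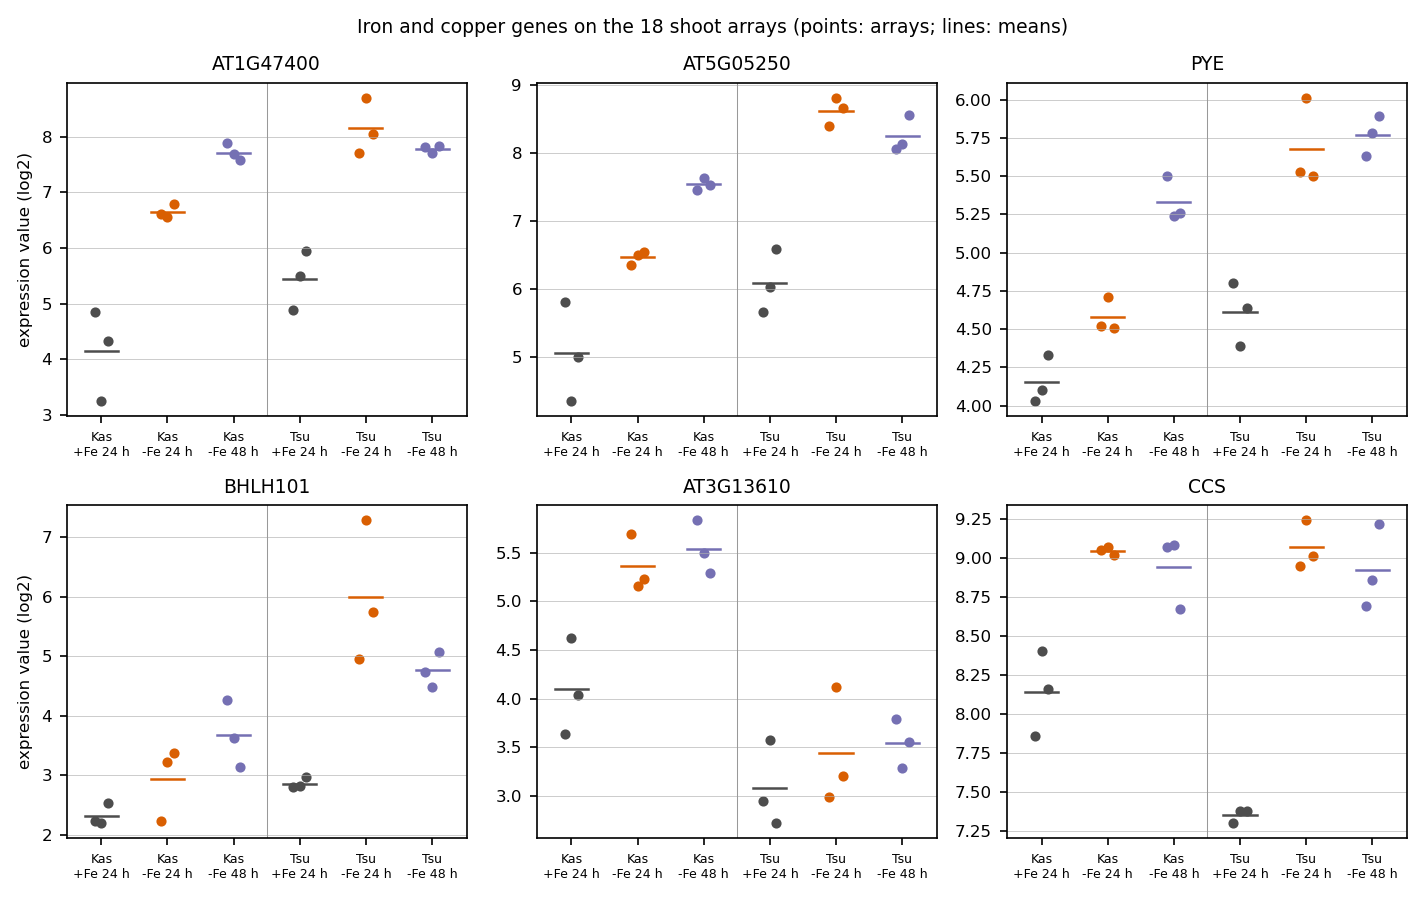
The 6 panels give the expression values (log2) of 6 iron and copper genes on the 18 shoot arrays, by ecotype, iron and time, with a point for each array and a line for each mean of 3. AT1G47400, AT5G05250, PYE and CCS lie higher without iron at 24 h in both ecotypes, though PYE was not called in Kas. In Kas, all of the 6 genes except CCS have their highest mean at 48 h.

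Several lists cover proteins that use iron in the leaf. In those of chlorophyll and heme synthesis (5 genes measured), iron-sulfur cluster assembly (3), photosystems and light harvesting (3) and heme peroxidases and catalases (2), 0 genes were called in either direction. Of all probe sets that name 1 gene 1.52% were called, a background at which lists of this size mostly hold no call. GSA1, HEMB1, HEME2, CHLM and PORB, enzymes of the path to chlorophyll, differed by -0.19, -0.23, -0.07, 0.05 and -0.18. For GSA1 the values were 8.78, 8.73 and 8.75 with iron and 8.54, 8.47 and 8.66 without, so the groups did not overlap although the adjusted p was 0.448. The cysteine desulfurase gene CPNIFS, the scaffold genes HCF101 and ISU1 and the photosystem gene PSAN differed by 0.08, -0.07, 0.00 and -0.08. The plastid ascorbate peroxidases SAPX and TAPX, heme enzymes that remove peroxide, differed by 0.14 and -0.07. Iron storage and long-distance transport had 0 members on a probe set with 1 gene name and are not analysed here.

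The deepest change of the comparison, in either direction, was at an unnamed probe set, 254098_at. It read 10.05, 9.69 and 9.59 with iron, and 4.72, 4.71 and 4.63 without. The difference of -5.09 (SE 0.32, n = 3, adjusted p = 3.39e-08) took it from 9.78 ± 0.24 to 4.69 ± 0.05 (SD), just below the median level of all probe sets with iron, 4.96. At 48 h it read 3.50, 3.93 and 4.84. The arrays of Tsu shoots enter the Kas comparison only through the shared estimate of the spread. There 254098_at was also lower without iron, with differences of -3.19 at 24 h and -2.45 at 48 h (adjusted p = 5.98e-07 and 0.000207). The Tsu arrays at 24 h without iron lay between the ecotypes on the index, at 0.434 ± 0.067 (SD). The largest rise of an unnamed probe set was 2.18, at 253240_at.

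No list held more than 1 risen call, those of the iron and copper genes included. AT3G28270 read 4.44, 3.84 and 3.67 with iron and 5.72, 5.60 and 5.79 without, a rise of 1.72 (adjusted p = 0.00392). AT5G60250, a RING-type zinc-finger gene, rose by 1.39, AT1G75960, of the AMP-dependent synthetase family, by 1.37, AT1G20120, a GDSL-type lipase gene, by 1.33, and AT1G52000, a jacalin-type lectin gene, by 1.27, with adjusted p from 0.00017 to 0.00203. AT5G62130 read 5.75, 5.53 and 5.46 with iron and 6.92, 6.85 and 7.10 without (rise 1.38, SE 0.15, adjusted p = 6.84e-05). It fell back to 6.13, 6.19 and 6.28 at 48 h, below all its arrays of 24 h. Its neighbour on chromosome 5, AT5G62140, was called too, with a rise of 0.83.

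BUB3.2 (AT1G49910), a homolog of the spindle checkpoint gene BUB3, had the smallest adjusted p of any risen named gene. Its values were 3.62, 3.58 and 3.44 with iron, 4.84, 4.89 and 4.74 at 24 h without iron, and 5.78, 5.34 and 5.32 at 48 h. The 3 groups did not overlap, with a rise of 1.27 at 24 h (SE 0.13, adjusted p = 2.64e-05). BSH (AT3G17590), the SNF5-type subunit of a chromatin-remodelling complex, rose from 4.19 ± 0.19 to 5.28 ± 0.11 (SD, n = 3, adjusted p = 0.000134) and stood at 5.27 ± 0.16 at 48 h. AT4G25330 (1.17), AT2G40435 (1.12), AT5G33300 (1.11) and AT1G33950 (1.12), the last of the AIG1 family of GTP-binding proteins, rose with adjusted p of at most 0.0023. Their means with iron were low, at 2.18, 4.27, 3.51 and 2.95, against a median of 4.96 over all probe sets. Low with iron too were AT5G60250 at 2.79, AT1G20120 at 3.0 and AT1G75960 at 3.53.

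Of the genes chosen for their small adjusted p, AT3G21670, a transporter of the nitrate/peptide family, read 7.91, 8.0 and 7.86 with iron and 8.71, 8.78 and 8.91 without (rise 0.88, SE 0.11, adjusted p = 0.000166). AT1G75900, a GDSL-type lipase gene, read 6.85, 7.13 and 7.02 with iron and 7.78, 7.87 and 8.0 without (rise 0.88, adjusted p = 0.00017). At both genes the arrays of a group lay close together and the groups stood apart.

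**Figure D3:**
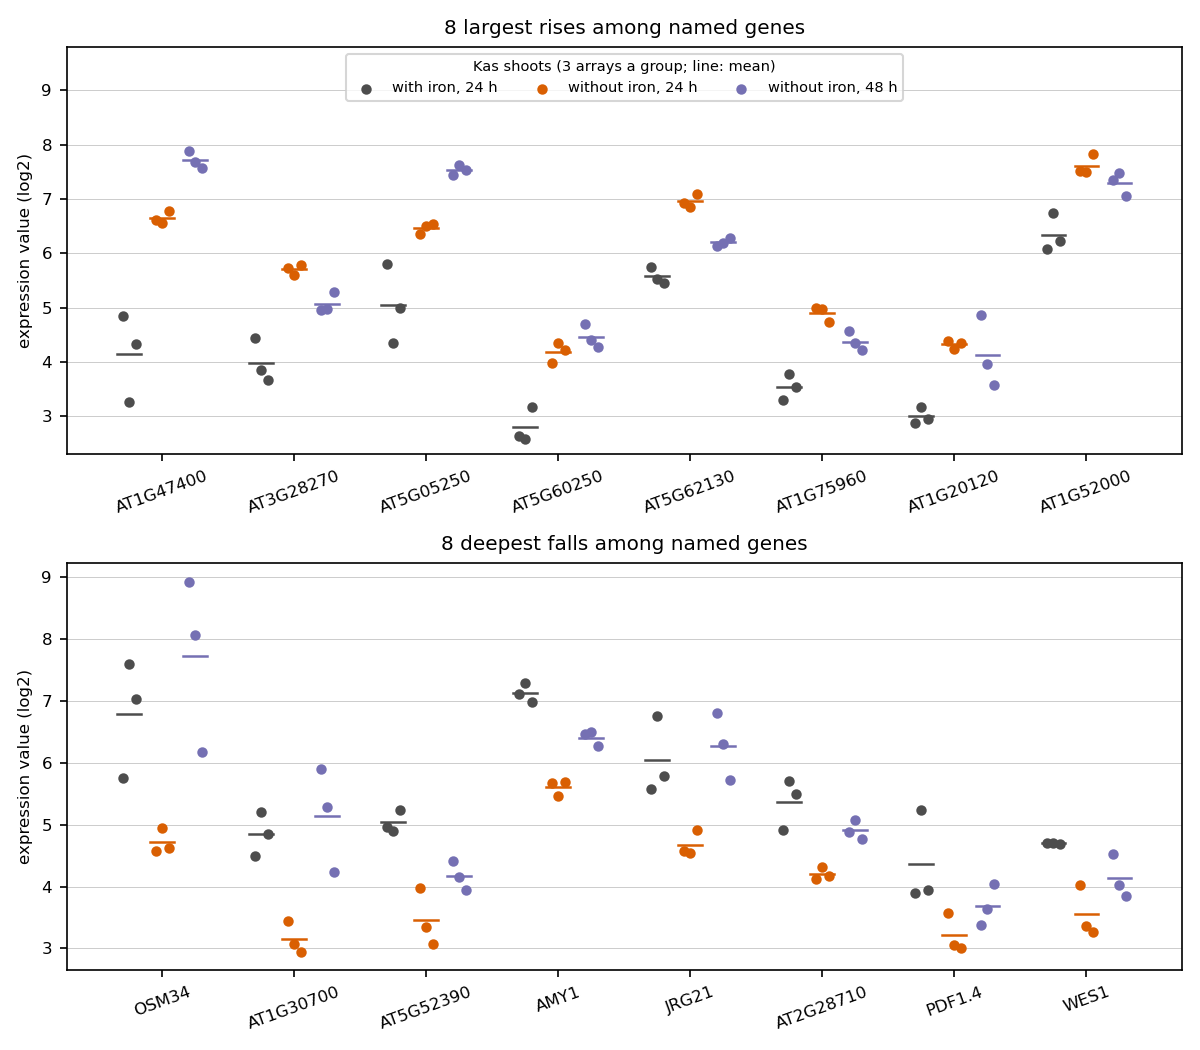
For the 8 largest rises and 8 deepest falls among named genes, each point is the expression value (log2) of 1 array of Kas shoots and each line the mean of 3. At 24 h the groups with and without iron do not overlap at any of the 16 genes, by the rule that chose them. At OSM34, AT1G30700 and JRG21 all arrays at 48 h lie above all arrays at 24 h without iron. The same holds at AMY1, AT2G28710, AT1G47400 and AT5G05250.

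Of the named falls, OSM34 was the deepest. OSM34 (AT4G11650), an osmotin-like protein of the pathogenesis-related type, read 5.75, 7.60 and 7.03 with iron and 4.57, 4.95 and 4.62 without. The arrays with iron were spread over almost 2 units, all above those without, and the difference was -2.08 (SE 0.46, n = 3, adjusted p = 0.0236). AT1G30700, a berberine-bridge-like oxidase gene, read 4.50, 5.21 and 4.85 with iron and 3.45, 3.07 and 2.95 without (difference -1.70, SE 0.27, adjusted p = 0.00196). JRG21 (AT3G55970), a jasmonate-regulated dioxygenase, read 5.58, 6.75 and 5.79 with iron and 4.58, 4.54 and 4.91 without (difference -1.36, SE 0.25, adjusted p = 0.00593). At all 3 genes replicate 2 was the highest of the arrays with iron.

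JRG21 belongs to the jasmonate list. Of the list's 5 genes measured, 2 were called lower, JRG21 and the defensin gene PDF1.4 (difference -1.15, adjusted p = 0.0381), and its median was -0.22. Over all probe sets 0.805% were called lower, and the median was -0.03. The defensin gene PDF1.2, a marker of the jasmonate and ethylene response, read 7.25, 8.10 and 7.82 with iron and 7.69, 8.06 and 8.25 without, a difference of 0.28 with overlapping groups (adjusted p = 0.673). PDF1.2b differed by -0.13 and the thionin gene THI2.1 by -0.22. In the family of defensins and thionins, 1 of 17 was called, PDF1.4 again, where 1.52% of all single-gene probe sets were called. In that family 2 of 17 had a difference above 0, and the median was -0.11. The other salicylate gene measured, SAG101, differed by 0.02.

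In the list of starch and sugar, 2 of 4 genes measured fell, both of them enzymes of starch breakdown, where 0.805% of all probe sets were called lower. AMY1 (AT4G25000), a secreted alpha-amylase, read 7.11, 7.29 and 6.98 with iron and 5.67, 5.46 and 5.69 without. The lowest array with iron was more than 1 unit above the highest without (fall -1.52, SE 0.15, n = 3, adjusted p = 2.64e-05), and at 48 h the values lay between, at 6.46, 6.49 and 6.27. DPE1 (AT5G64860), the plastid disproportionating enzyme that processes maltotriose, read 8.52, 8.30 and 8.17 with iron and 7.85, 7.88 and 7.73 without (difference -0.51, SE 0.10, adjusted p = 0.0119), a call that ended in 2 of the 6 fits without 1 array. The starch synthesis gene APL3 and the sugar transporter SWEET4 differed by 0.15 and 0.45 and were not called.

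A pair of cold-regulated genes fell. COR27 and AT4G33980, the latter entered as COR28, encode related regulators tied to the clock and to cold. COR27 read 7.05, 6.74 and 6.88 with iron and 6.27, 6.15 and 5.81 without (difference -0.81, SE 0.13, adjusted p = 0.00196). AT4G33980 read 6.83, 6.80 and 7.05 with iron and 5.91, 5.92 and 5.57 without (difference -1.09, SE 0.14, adjusted p = 0.000222). These were the 2 calls among 6 genes measured of the abscisic acid and cold list, against 0.805% called lower over all probe sets, all 6 of which had a difference below 0, with a median of -0.42. COR15B (-0.48), COR15A (-0.36), COR47 (-0.17) and LTI30 (-0.15), which encode protective proteins of cold and drought, were not called. The clock gene GI differed by -0.16. AT4G33985, the neighbour of AT4G33980 on chromosome 4, was called with -0.55.

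Cell wall genes gave calls in both directions. Of 19 expansins, which loosen walls during growth, 3 were called and all were lower, where 1.52% of all single-gene probe sets were called in either direction: EXPA4 (-0.62, adjusted p = 0.0131), EXPB3 (-0.57, adjusted p = 0.0337) and EXPA15 (-0.47, adjusted p = 0.0448). EXPA4 read 7.96, 7.46 and 7.87 with iron and 7.13, 7.13 and 7.17 without. Each of the 3 calls ended in 5 of the 6 fits without 1 array. The family's median was -0.15, and EXLA1, an expansin-like gene, had the highest value of it at 0.71 (adjusted p = 0.156). Of 10 xyloglucan enzymes, which cut and join wall polymers, 1 was called and it was higher: EXGT-A3 read 8.08, 8.07 and 8.14 with iron and 9.01, 8.72 and 8.95 without (rise 0.80, SE 0.16, adjusted p = 0.0131). EXO, a gene of leaf cell expansion and the 1 call of 3 in the list of touch and acute stress, rose from 5.71 ± 0.12 to 6.37 ± 0.26 (adjusted p = 0.0155).

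Among transcription factors of senescence and stress, WRKY6 was called. WRKY6, a transcription factor of senescence and defence, fell from 5.31 ± 0.22 to 4.52 ± 0.39 (SD, n = 3, difference -0.79, adjusted p = 0.0336). It was the 1 call among 7 WRKY factors, 6 of which had a difference below 0. Of all single-gene probe sets 1.52% were called, and the median difference of all probe sets was itself below 0, at -0.03, so these counts do not set the family apart. WRKY53 differed by -0.63, WRKY22 by -0.61 and the stress zinc-finger gene STZ by -0.54, with adjusted p of 0.149, 0.0953 and 0.0581, so none of these passed. WES1 (AT4G27260), a GH3 enzyme that couples auxin and salicylate to amino acids, read 4.70, 4.70 and 4.69 with iron and 4.03, 3.36 and 3.27 without, a difference of -1.15 (SE 0.17, adjusted p = 0.000941). The auxin-responsive genes GH3.1, GH3.3 and IAA29 differed by 0.03, 0.26 and 0.23 and were not called.

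The other named falls were AT5G52390 (-1.58), AT2G28710, a zinc-finger gene (-1.17), AT5G55420 (-1.05), AT5G06570 (-1.05), AT1G14890, of the inhibitors of pectin methylesterase and invertase (-1.05), AT1G26410, a berberine-bridge-like oxidase gene (-0.97), AT2G31945 (-0.96) and AT1G33030, of the O-methyltransferase family (-0.95). UGT72E1, a glycosyltransferase of phenylpropanoids, had a difference of -0.48 (adjusted p = 0.0462) and was the 1 call of 51 UDP-glycosyltransferases. CYP71B35 rose by 0.80 (adjusted p = 0.0368), the 1 call of 23 cytochrome P450 heme enzymes. Glutathione transferases (13), bZIP factors (20), ribosomal proteins (16), bHLH factors (7) and histones (6) had 0 calls. With 1.52% of all single-gene probe sets called, these counts do not set the families apart.

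**Figure D4:**
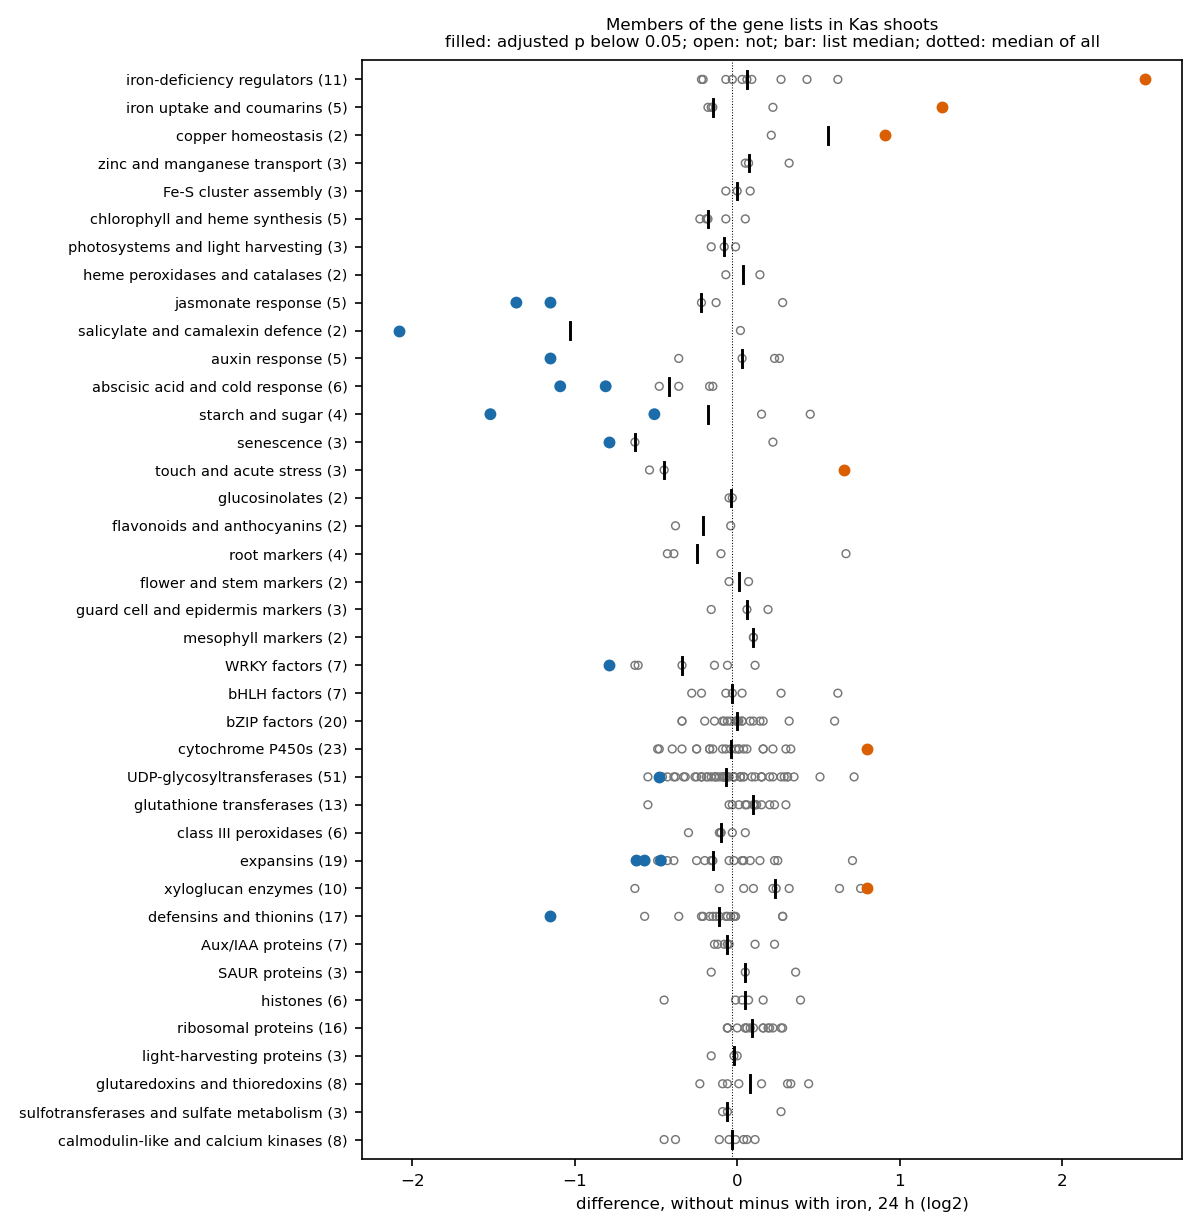
Each row is a gene list or family with at least 2 probe sets, their number in parentheses, and each point a member's difference, without minus with iron at 24 h (log2). Filled points were called, orange higher and blue lower, black bars are list medians, and the dotted line is the median of all probe sets, -0.03.

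In all, the lists fixed by locus held 79 probe sets for 78 genes, of which 4 were called higher and 9 lower, where all probe sets gave 1.06% higher and 0.805% lower. Since the lists were chosen with earlier results of these arrays known, their share of calls is a description and no more. No marker of a cell type was called. The guard cell genes FMA, SPCH and MUTE differed by -0.16, 0.06 and 0.19, and the mesophyll genes RCA and PRK by 0.10 each. The phloem sugar exporter gene SWEET11 read 9.30, 9.39 and 9.07 with iron and 8.84, 8.85 and 8.87 without (difference -0.40, adjusted p = 0.0986). Among 4 root markers, PYK10, a beta-glucosidase, read 5.99, 6.19 and 6.17 with iron and 6.78, 6.72 and 6.87 without (difference 0.67, adjusted p = 0.0593), while the other 3 differed by -0.10 to -0.43. The part of these 2 in the results was not tested. In whole shoots, fewer cells of a type and less RNA per cell cannot be told apart.

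Of the 43 genes named by the rule, 21 higher and 22 lower, 29 stayed called without each of the 6 arrays in turn, and 14 did not. The calls of UGT72E1 and AT2G31945 ended without any 1 of the 6 (highest adjusted p = 0.194 and 0.0918). Those of AT3G13610, CYP71B35, EXPB3 and EXPA4 ended without any 1 of them except replicate 2 with iron (highest adjusted p = 0.107, 0.153, 0.146 and 0.0679). OSM34 and AT1G26410 stayed called only without replicate 1 with iron (0.112 and 0.127), EXPA15 only without replicate 1 without iron (0.205) and WRKY6 only without replicate 3 without iron (0.179). For EXGT-A3 the arrays were replicates 1 and 3 without iron and 2 with iron (0.0663), for EXO replicate 3 without and 1 and 3 with iron (0.105), for DPE1 replicate 3 without and 1 with iron (0.0735), and for PDF1.4 replicates 2 and 3 without and 2 with iron (0.155). Each of these genes kept its direction in every one of these fits.

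A further comparison asked where the level after 48 h without iron differed from that after 24 h in Kas shoots. It shares the 24 h arrays with the first comparison, so a gene chosen for a low or high reading there starts from that reading. Here 86 probe sets were called (0.378%), 69 higher at 48 h (0.303%) and 17 lower (0.0747%). The named genes that rose most from 24 h to 48 h were OSM34, AT1G30700 and JRG21, which had fallen at 24 h, with AT1G05340 (1.52) and AT1G74010 (1.46), a strictosidine-synthase-like gene.

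OSM34 read 8.93, 8.06 and 6.17 at 48 h, a rise of 3.01 from 24 h (SE 0.46, n = 3, adjusted p = 0.00375). AT1G30700 read 5.90, 5.28 and 4.24 (rise 1.98, adjusted p = 0.0018) and JRG21 6.80, 6.31 and 5.72 (rise 1.60, adjusted p = 0.00375). At these 3 genes all arrays at 48 h lay above all arrays at 24 h, and against the shoots with iron the differences at 48 h were 0.93, 0.29 and 0.24, with adjusted p of 0.317, 0.672 and 0.707. In each of them replicate 1 was the highest and replicate 3 the lowest array at 48 h.

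The named genes that were lower at 48 h than at 24 h included AT2G05540, a glycine-rich protein gene (-0.80), AT1G61740, of a family of sulfite exporters (-0.78), AT5G62130 (-0.75), AT3G19850 (-0.74) and AT1G67590 (-0.70). At AT5G62130 and AT1G74010 the call ended without replicate 1, 2 or 3 of 24 h or replicate 1 or 2 of 48 h (highest adjusted p = 0.176 and 0.165). At AT3G19850 it ended without replicate 1 or 3 of 24 h or 1 or 2 of 48 h (0.137), and at AT1G67590 without replicate 2 or 3 of 24 h or 2 of 48 h (0.0898). With all 36 arrays in 1 fit the calls of AT3G19850, AT1G67590 and AT2G05540 ended as well (highest adjusted p = 0.137, 0.225 and 0.328). The call of AT1G74010 also ended with only the arrays compared. It and that of AT5G62130 ended without the Tsu 24 h arrays without iron. AT2G05540 read 6.80, 6.91 and 6.68 with iron, 7.39, 7.24 and 7.36 at 24 h and 6.69, 6.29 and 6.59 at 48 h, so its rise at 24 h (adjusted p = 0.0317) was gone by 48 h. Against complete medium, 935 probe sets were called in Kas at 48 h (4.11%), and 33 of the 43 named genes had a smaller difference than at 24 h. These genes were chosen on their 24 h values, so the count of 33 cannot show whether the response faded. Side by side, the difference from the shoots with iron was 2.51 at 24 h and 3.58 at 48 h for AT1G47400, 1.41 and 2.48 for AT5G05250, 1.27 and 1.93 for BUB3.2, 1.26 and 1.43 for AT3G13610 and 0.91 and 0.80 for CCS. For AMY1 it was -1.52 and -0.72 and for COR27 -0.81 and -0.95. These values share the complete-medium arrays, which were sampled at 24 h alone, so at 48 h iron and time cannot be told apart. The count of 86 was 37, 33 and 32 without replicates 1, 2 and 3 of 24 h. It was 45, 31 and 102 without replicates 1, 2 and 3 of 48 h.

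**Figure D5:**
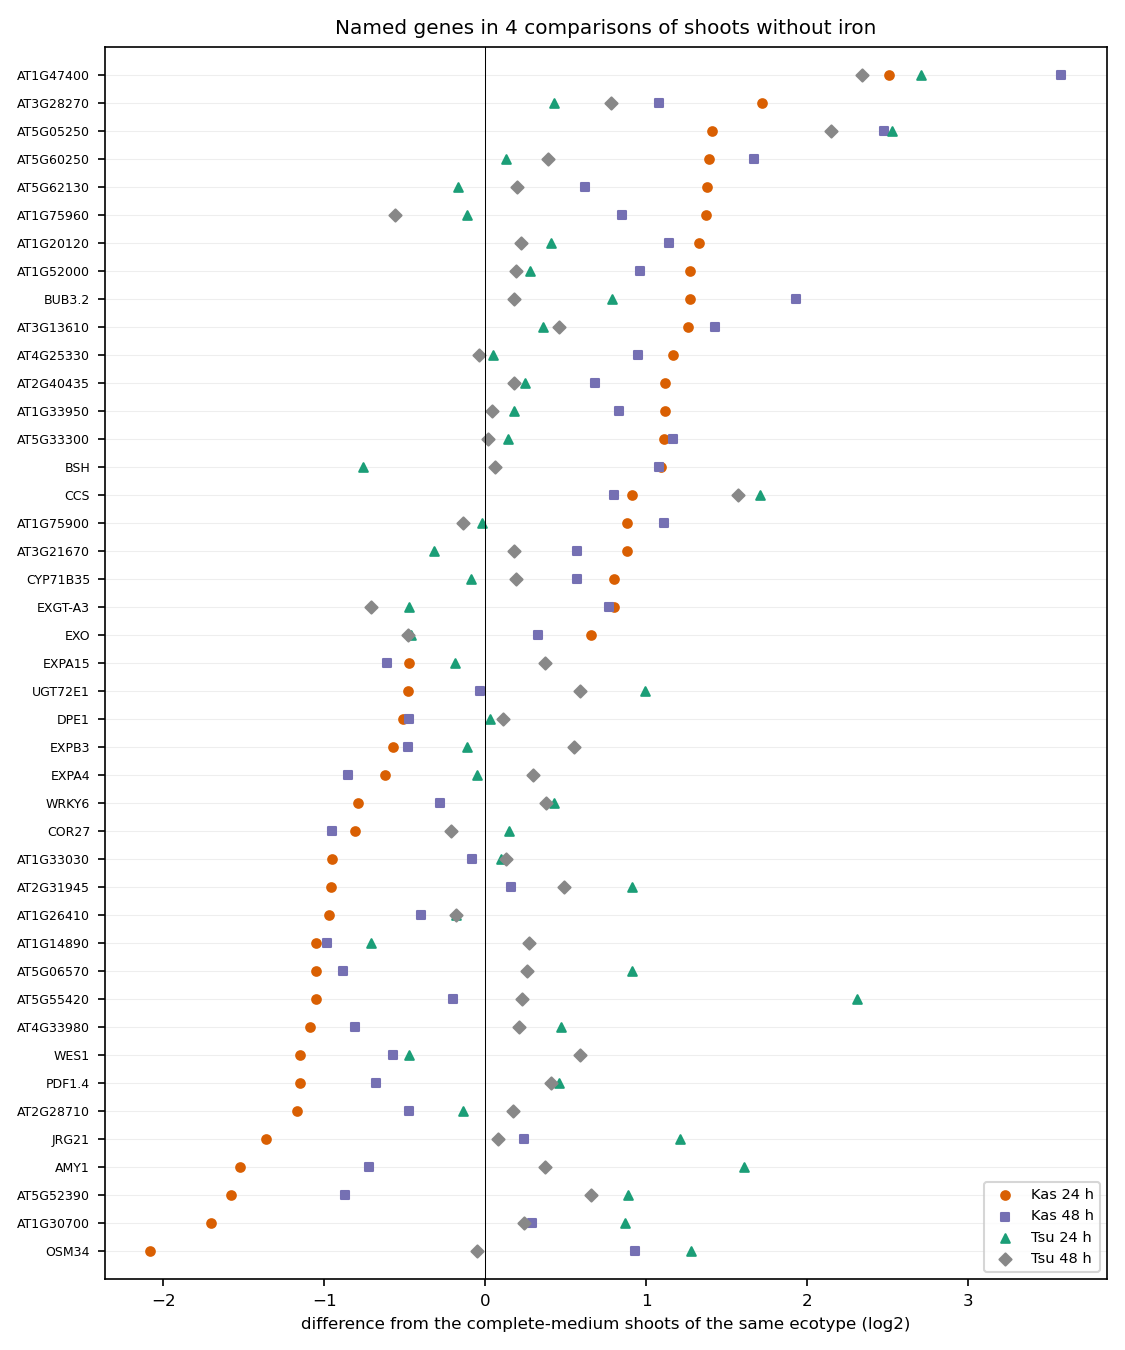
For the named genes, each row gives the difference from the complete-medium shoots of the same ecotype (log2) for Kas and Tsu at 24 h and 48 h without iron. AT1G47400, AT5G05250 and CCS lie to the right of 0 in all 4 and were called in each. Other risen genes also lie to the right in all 4, BUB3.2 among them. BUB3.2 was at 0.79 in Tsu at 24 h and at 0.18 at 48 h (limma adjusted p = 0.000151 and 0.512). Most other genes lie near 0 or on the other side in Tsu. Comparisons of 1 ecotype share their complete-medium arrays.

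Shoots of Tsu give a measure of the same genes on arrays that entered the Kas comparison only through the estimate of the spread. The ecotype index takes its 0 and 1 from the Tsu and Kas groups at 48 h without iron, so it cannot check those groups. The Tsu shoots at 48 h stood at 0.001 ± 0.017 by that scaling (SD, n = 3). The Tsu shoots with iron lay at the Tsu end, at -0.008 ± 0.018. Those sampled at 24 h without iron lay between the ecotypes, at 0.434 ± 0.067, against their label. The 48 h shoots are therefore given first, though unchecked by the index, and there 988 probe sets were called (4.34%). They were set against the Tsu shoots on complete medium at 24 h, so in them, too, iron and time cannot be told apart. The 2 ecotypes share no array, only the estimate of the spread. Control probe sets differed between them too. That of 25S ribosomal RNA read 9.03 ± 0.46 in Kas with iron and 9.65 ± 0.27 at 24 h without. In Tsu it read 5.55 ± 0.37 with iron, 6.16 ± 0.44 at 24 h without and 7.2 ± 1.68 at 48 h. The 3' minus 5' difference of GAPDH was -0.24 and -0.19 in those Kas groups and 0.14, 0.22 and 0.05 in Tsu. The part of these controls in the results was not tested. Of the 241 probe sets that rose in Kas at 24 h, 14 (5.81%) were called higher in Tsu at 48 h and 32 (13.3%) lower, against 2.45% and 1.89% of all probe sets. Of the 183 that fell, 4 (2.19%) were called lower and 25 (13.7%) higher. As shares of the calls in Tsu, the 14 were 2.51% of 558 and the 4 were 0.93% of 430. In Tsu at 24 h, where 3666 were called (16.1%), 42 of the 241 (17.4%) were called higher and 59 (24.5%) lower, and of the 183, 56 (30.6%) higher and 18 (9.84%) lower, against 8.29% and 7.83% of all. So most genes called in Kas at 24 h were not called in the same direction in Tsu at either time.

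Among the 14 shared rises, 5 name a gene: AT1G47400, AT5G05250, CCS, AT3G60420 and AT3G17770. AT1G47400 rose by 2.34 in Tsu at 48 h, AT5G05250 by 2.15 and CCS by 1.57 (adjusted p = 0.000162, 6.82e-05 and 5.21e-06). In Tsu, CCS read 7.30, 7.38 and 7.38 with iron and 8.69, 8.86 and 9.22 at 48 h without. AT3G60420 rose by 0.93 in Kas and by 0.66 in Tsu, and AT3G17770 by 0.56 and 0.52. Of the 4 shared falls, 254098_at was the deepest, and AT2G47880, a glutaredoxin-family gene, was the only one that names a gene, at -0.54 in Kas and -0.59 in Tsu (adjusted p = 0.049 and 0.0197). AT3G60420, AT3G17770 and AT2G47880 were named after their values were seen.

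A test of the difference itself set the change in Kas at 24 h against the change in Tsu at 24 h. It called 2556 probe sets (11.2%), 1154 with the higher change in Kas (5.07%) and 1402 with the lower (6.16%). The Tsu arrays without iron that enter it are those at an index of 0.434, and the named genes with the largest differences were not called in Kas. AT4G29200 read 8.16 ± 0.10 and 8.12 ± 0.07 in Kas with and without iron, and 2.65 ± 0.25 and 7.90 ± 0.11 in Tsu (SD, n = 3, difference of the changes -5.29, adjusted p = 5.69e-14). In Tsu at 48 h it read 2.79 ± 0.19, so among the Tsu groups the 24 h shoots without iron alone stood at the Kas level. AT5G59670 (-5.09), AT1G73490 (-4.89), AT2G15560 (-4.79) and AT5G45500 (-4.29) had the same pattern.

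At the other end stood EXLA1 (3.13), AT5G15780 (2.78), AT5G48490 (2.44), AT1G13650 (2.44) and AT2G01870 (2.42), none of which was called in Kas. EXLA1 read 4.73 ± 0.11 and 5.44 ± 0.05 in Kas with and without iron, and 7.20 ± 0.12 and 4.78 ± 0.44 in Tsu. The call of AT5G15780 ended without replicate 3 of Kas without iron, 3 of Tsu without iron or 1 of Tsu with iron (highest adjusted p = 0.0565). Among the 17211 probe sets whose Kas and Tsu means at 48 h differ by less than 0.5, 941 were called. How much of the difference between the ecotypes' changes comes with the position of the Tsu arrays was not tested.

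The iron genes differed among themselves in the same test. BHLH101 changed by 0.62 in Kas and by 3.13 in Tsu (difference -2.51, SE 0.56, adjusted p = 0.00535), and its 3 Tsu arrays without iron, at 4.96, 7.28 and 5.75, lay above all its Kas arrays. AT1G18910, entered as BTSL2, changed by 0.09 and 0.96 (difference -0.87, SE 0.20, adjusted p = 0.00642). Both calls held in every alternative run, but all of those runs kept Tsu arrays of 24 h without iron, so they cannot check the position of those arrays. At 48 h the change in Tsu was 1.9 for BHLH101 and 0.4 for AT1G18910 (limma adjusted p = 0.00918 and 0.123). BGLU42 changed at 24 h by -0.15 in Kas and by 0.46 in Tsu (difference -0.60, adjusted p = 0.0302). That call ended in 8 of 21 alternatives (highest adjusted p = 0.0956). The change of AT1G47400 did not pass as different, with 2.51 in Kas and 2.71 in Tsu (difference -0.19, SE 0.43, adjusted p = 0.845). AT5G05250 changed by 1.41 and 2.53 (difference -1.12, SE 0.36, adjusted p = 0.054). CCS rose less in Kas, by 0.91 against 1.71 (difference -0.80, SE 0.21, adjusted p = 0.0168). PYE changed by 0.43 in Kas and by 1.07 in Tsu (difference -0.65, SE 0.20, adjusted p = 0.0428), a call that ended in 14 of 21 alternatives (highest adjusted p = 0.129). For CCS the groups without iron stood at the same level, 9.05 ± 0.02 in Kas and 9.07 ± 0.16 in Tsu, and those with iron differed, at 8.14 ± 0.27 and 7.35 ± 0.05. The call for CCS ended without replicate 2 of Kas with iron or replicate 2 of Tsu without iron (highest adjusted p = 0.0543).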

How the data were processed

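Expression was measured on 36 arrays of Arabidopsis roots and shoots, in 12 groups of 3 set by the sample titles. The values the authors deposited are on a log2 scale, judged by their range, with 1 value for each probe set and array. Those of the 6 arrays compared ran from 1.47 to 12.99 with medians from 4.92 to 4.97. The scanning, normalization and summary of the arrays were not given in the sources used here. Detection calls were not used, and the number of arrays limits the precision. Of 22810 probe sets, 64 Affymetrix controls were left out, and 22746 were tested without a filter on dim ones. No 2 arrays held identical values (0 pairs), and 0 columns were left unmapped.

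Names came from the array's annotation, updated through RefSeq (TAIR10.1), in which 13436 of the 13513 single-gene probe sets were found and 77 were not. Only single-gene probe sets were named, by locus code where RefSeq holds no symbol. An "entered as" name is that of the gene list.

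The 18 shoot arrays entered 1 limma 3.58.1 fit (R 4.3.3, lmFit and eBayes, 1 mean for each of 6 groups). Tests were two-sided, with Benjamini-Hochberg adjustment over all 22746 probe sets and a threshold of 0.05. Contrasts were Kas without minus with iron at 24 h, Kas 48 h minus 24 h without iron, and the change in Kas minus that in Tsu at 24 h. The procedure was tested on simulated data. Nearest arrays were those with the highest correlation over all probe sets. The ecotype index used the 30 probe sets that differed by more than 3 between Kas and Tsu at 48 h in both tissues. In each tissue the means of those groups set its 0 and 1.

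The comparison, the gene lists and the rule for named genes were chosen with earlier results of these data known. By that rule, the 15 highest and 15 lowest differences were taken among single-gene calls whose groups did not overlap, the 10 such calls with the smallest adjusted p, and up to 5 called members of each list, and for the other contrasts the 5 largest in each direction. There were 26 lists of loci, with 439 loci entered and 78 measured, and 26 families matched by symbol. The lists were iron-deficiency regulators, iron uptake and coumarins, iron storage, iron chelation with long-distance transport, copper, zinc and manganese, iron-sulfur clusters, chlorophyll and heme, photosystems, peroxidases, hormones, starch, senescence, clock, phosphate, touch, glucosinolates, flavonoids and cell type markers. 3 lists and 6 families had no member with a name here. The patterns for cytochrome P450s and cyclins were corrected after they were seen to match cyclophilins. The counts in Tsu of the genes called in Kas were also added after the results were seen, as were PYE, BHLH101, AT1G18910 and BGLU42 to the genes run under the alternatives of the other contrasts. The alternatives were the replicate block, other sets of arrays, a filter on dim probe sets, scaling, an intensity trend, array weights and leaving out each array.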

Additional observations from a re-analysis of the deposited data

Results flagged for a closer look

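Of the 43 named genes, 32 differed between the ecotypes in the test of their changes at 24 h (change in Kas minus change in Tsu, log2, limma adjusted p below 0.05). Over all probe sets 11.2% were called there. The Tsu arrays without iron in that test lay between the ecotypes (index 0.434), and the genes were chosen for their change on the Kas arrays that the test shares. Among the genes that rose in Kas, the difference was 1.25 for AT5G60250, 1.55 for AT5G62130, 1.47 for AT1G75960, 0.99 for AT1G52000, 1.12 for AT4G25330, 0.87 for AT2G40435, 0.93 for AT1G33950 and 0.97 for AT5G33300. It was 1.85 for BSH, 0.91 for AT1G75900, 1.19 for AT3G21670, 0.89 for CYP71B35, 1.27 for EXGT-A3, 1.12 for EXO and -0.80 for CCS.

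Among those that fell in Kas, it was -1.47 for UGT72E1, -0.54 for DPE1, -0.57 for EXPA4, -1.22 for WRKY6, -0.96 for COR27, -1.06 for AT1G33030, -1.87 for AT2G31945, -1.96 for AT5G06570 and -3.36 for AT5G55420. It was -1.56 for AT4G33980, -1.61 for PDF1.4, -1.03 for AT2G28710, -2.58 for JRG21, -3.13 for AMY1, -2.46 for AT5G52390, -2.56 for AT1G30700 and -3.36 for OSM34. AMY1 illustrates the levels behind such a value: it read 7.13 ± 0.16 and 5.61 ± 0.13 in Kas with and without iron, and 3.87 ± 0.22 and 5.49 ± 0.20 in Tsu (SD, n = 3), with 4.24 ± 0.28 in Tsu at 48 h. The call ended in 15 of 20 alternatives for EXPA4, 9 of 20 for CYP71B35, 7 of 20 for AT2G40435, 7 of 21 for AT1G52000, 2 of 21 for CCS and DPE1, 1 of 19 for PDF1.4 and 1 of 20 for AT2G28710 (highest adjusted p = 0.128, 0.116, 0.104, 0.0782, 0.0543, 0.208, 0.103 and 0.0702). The other 24 calls held in every alternative run, but all of these runs kept Tsu arrays of 24 h without iron.

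In Kas shoots, 9 of the named genes differed between 24 h and 48 h without iron, where 0.378% of all probe sets were called. Higher at 48 h were OSM34 by 3.01, AT1G30700 by 1.98, JRG21 by 1.60, AT2G31945 by 1.12, AT1G33030 by 0.87, AT5G55420 by 0.86, AMY1 by 0.80 and BUB3.2 by 0.66, and AT5G62130 differed by -0.75. These differences start from the 24 h arrays on which the genes were chosen. The calls of AT1G33030, JRG21, AT1G30700 and OSM34 held under every alternative run. Those of the other 5 ended without at least 1 array (highest adjusted p = 0.176 for AT5G62130, 0.137 for BUB3.2, 0.129 for AT2G31945, 0.17 for AT5G55420 and 0.105 for AMY1). With all 36 arrays in 1 fit the calls of BUB3.2, AT2G31945 and AT5G55420 ended too.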

How the results depend on the processing

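Counts are of calls, main value first. In the 24 h comparison of Kas shoots, 424 became 235 with all 36 arrays in 1 fit (159 higher, 76 lower) and 753 with array weights. Leaving out 1 array gave 161 to 294. The replicate block (376 calls) and the other 6 alternatives stayed within 1.5 times, among them the fit without the Tsu 24 h arrays without iron (343). For 48 h against 24 h, 86 became 144 with only the arrays compared, 47 with all 36 arrays, 174 with an intensity trend, 554 with array weights and 31 to 102 without 1 array, against 68 with the replicate block. For the difference between the ecotypes' changes, 2556 became 941 among probe sets alike in the ecotypes, 2417 with the replicate block and 2022 to 2425 without 1 array. The causes were not tested, except that fewer arrays or probe sets were used where the setting says so. Quantile normalization gave 280 higher and 160 lower calls at 24 h and median centring 280 and 151, against 241 and 183. They moved the median of all probe sets from -0.0275 to -0.0057 and -0.011. No named gene changed its sign in any alternative (0 cases). Of the 43, 29 kept their call in all alternatives: 15, or 14 where the filter on dim probe sets left the gene out. The 14 others lost it without at least 1 array, and 7 of them also with only the arrays compared, 6 with all 36 arrays, 3 with median centring, and 2 each with quantile normalization, the replicate block and without the Tsu 24 h arrays. Replicate numbers did not pair the samples: deviations of same-numbered arrays with and without iron correlated at -0.0692, -0.0352 and 0.0083. Of 16 genes described for 48 h against 24 h, 6 kept their call throughout, and of 46 for the ecotypes' difference, 35. Of the deepest fall, 254098_at, the difference ranged from -5.18 to -4.95. Dim probe sets were not separated from absent ones, and only probe sets with a gene name could enter the lists.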
